A study of Mus musculus with 8 samples.

Results

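The Iroquois (Irx) homeobox genes encode transcription factors of the TALE class and lie in 2 clusters of 3 genes in the mouse genome. To determine where SMAD4-chromatin complexes occur around these genes in early limb buds, all SMAD4 ChIP-seq peaks whose centre lies within 500 kb of the 5′ end of Irx1, Irx2, Irx3, Irx4, Irx5 or Irx6 were collected. This rule gave 22 of the 8258 peaks of both stages, with 6 of the 2073 peaks at E9.5 and 16 of the 6185 peaks at E10.5. The rule used position only, and no score, width, overlap or sequence, although the genes were chosen with earlier results of these data known.

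The embryos were of the NMRI strain and carried the genotype Smad4Flag, in which the endogenous SMAD4 protein of both alleles is tagged with a 3xFLAG epitope at its C-terminus. SMAD4 was immunoprecipitated with the M2 anti-FLAG antibody, and input DNA of the same samples served as the control. The series holds 8 samples, with 2 SMAD4 ChIP and 2 input samples for each stage, all from pooled embryos. The E9.5 samples were forelimb buds with the attached trunk of about 80 embryos per replicate, which the protocol dates to E9.75, and the E10.5 samples were fore- and hindlimb buds of about 100 embryos per replicate. Stage and tissue can therefore not be told apart, although 1 label gives forelimb bud as the source of all samples. Both replicates of a stage had been combined by the authors before deposition, and there is 1 peak list per stage. No value has an error between replicates, none was tested, and the sequencing depth is unknown. Trunk cells can contribute to the E9.5 list, and their share cannot be read from peak positions.

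SMAD4 is the common partner of the receptor-activated SMADs and takes part in the nuclear response to BMP and TGFβ ligands. Irx3 and Irx5 are required together, from the onset of limb bud development, for skeletal elements of the proximal and anterior hindlimb, and SHH signalling counteracts their function in the early limb bud. In both clusters the genes are embedded in long stretches of non-coding DNA with distant enhancers. The introns of Fto, which encodes an RNA demethylase and neighbours Irx3, are known to hold regulatory regions that contact Irx3.

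The annotated positions (mm9, GENCODE vM1) matched the division into 2 clusters. Irx1 (ENSMUSG00000060969.7, chr13:72095680-72101171, minus strand), Irx2 (ENSMUSG00000001504.8, chr13:72766245-72771644, plus strand) and Irx4 (ENSMUSG00000021604.7, chr13:73397945-73407068, plus strand) span 1297 kb of chromosome 13 from the first to the last 5′ end. Irx3 (ENSMUSG00000031734.8, chr8:94322428-94325553, minus strand), Irx5 (ENSMUSG00000031737.8, chr8:94881695-94885351, plus strand) and Irx6 (ENSMUSG00000031738.7, chr8:95198188-95204855, plus strand) span 873 kb of chromosome 8. The first gene of each cluster is transcribed away from the other members, so that the DNA between Irx1 and Irx2, and between Irx3 and Irx5, lies upstream of both flanking genes. The windows also contain the 5′ ends of 10 other protein-coding genes on chromosome 13 and 12 on chromosome 8, and a peak within 500 kb of an Irx gene is not thereby assigned to it.

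The 3 sequences below are the CAGAC matches nearest to the centre of the peaks at the 5′ ends of Irx2, Irx3 and Irx5, the regions on which most of the results turn. CAGAC is a core SMAD-binding sequence. The lists give no summits, and the capitals mark the CAGAC match, read 5′ to 3′ on the minus strand of mm9 in all of them.

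Irx2, chr13:72765695-72765723: cggtgtccagggCAGACaccgcagggaga

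Irx3, chr8:94325836-94325864: gggacggacacaCAGACactgacgcggac

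Irx5, chr8:94881476-94881504: ttctctctttctCAGACtctcgagcgccg

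These matches lie 536 bp upstream of the 5′ end of Irx2, 297 bp upstream of that of Irx3 and 205 bp upstream of that of Irx5. The first lies 22 bp and the second 38 bp from the centre of its peak, and only the one at Irx5 lies outside the central 300 bp.

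At E10.5 the 5′ ends of Irx2, Irx3 and Irx5 were covered by peaks, of which those at Irx3 and Irx5 were among the best-scored of the list. At E9.5 the 6 peaks lay away from the Irx 5′ ends and had scores in the lower part of the list. No Irx gene had an E9.5 peak within 5 kb of its 5′ end, as was the case for nearly all genes, since 2.64% of the protein-coding genes had one. By a minimum overlap of 1 bp, 0 of the 22 peaks were shared between the stages. By this measure, shared peaks made up 18.7% of the E9.5 list, whereas they made up 6.26% of the longer E10.5 list. For so few peaks, 0 is close to what shares of this size give, and it does not set the Irx windows apart.

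**Figure D1:**
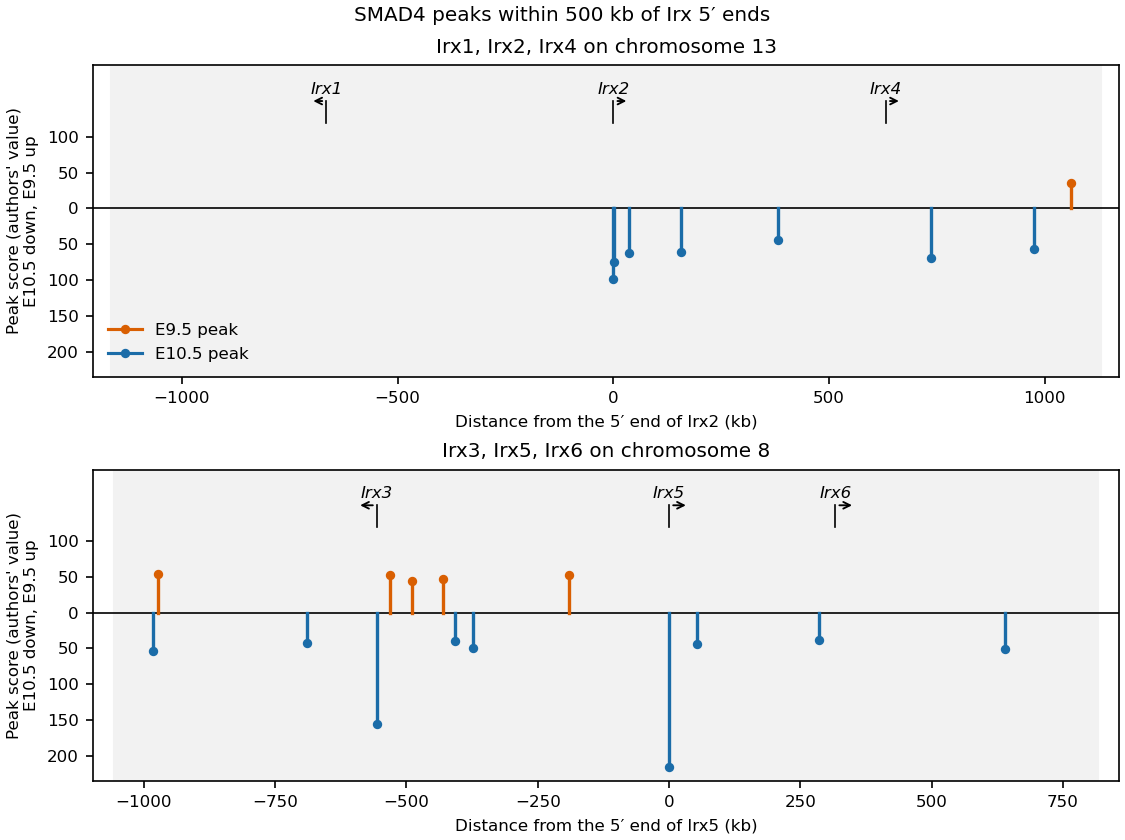
Centres of the SMAD4 peaks in the Irx windows (grey) by distance from the 5′ end of Irx2 (top) and Irx5 (bottom) in kb, with the score of each peak as line length, E9.5 upwards in orange and E10.5 downwards in blue; arrows give the 5′ ends and direction of transcription. The 5 E9.5 peaks of the chromosome 8 cluster lie between genes or in Fto. Within the E10.5 list the highest scores of the windows, 156 and 215, stand at Irx3 and Irx5; the levels of the scores are not compared between the stages.

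At E10.5, the peak at Irx5 had the highest score of all members. It spans chr8:94879324-94884907 (5584 bp) with a score of 215, rank 31 of 6185, which means that 0.485% of the list ranked above it. The score is the authors' value for each peak, for which the lists name no unit, and a higher score means a stronger call. The peak reached from 2.37 kb upstream of the 5′ end to 3.21 kb downstream and thereby covered 87.8% of the gene. It also covered the 5′ end of 4933436C20Rik, a neighbouring transcript, and its centre lay in a coding exon of Irx5, 0.42 kb from the 5′ end.

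The peak at Irx3 was the second best of the members and the widest of them. It spans chr8:94322781-94328843 (6063 bp) with a score of 156 and rank 91, so that 1.46% of the list ranked above it and 9.83% of the list was wider. It extended from 3.29 kb upstream to 2.77 kb downstream of the 5′ end and covered 88.7% of the gene. The 5′ end of D230002A01Rik, whose intron holds the centre of the peak, was covered as well.

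Around Irx2 the binding was divided over a pair of adjacent peaks. The first, chr13:72764132-72767242 (3111 bp), had a score of 99.0 and rank 540 (8.71% of the list above it) and covered the 5′ end of Irx2 from 2.11 kb upstream to 0.997 kb downstream. The second, chr13:72767659-72770028 (2370 bp), had a score of 74.5 and rank 1470 (23.8% above it), with its centre in a coding exon of Irx2, 2.60 kb downstream of the 5′ end. This centre also lay 0.69 kb upstream of the start of another annotated Irx2 transcript. The remaining genes, Irx1, Irx4 and Irx6, had no peak within 5 kb of their 5′ end at either stage.

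**Figure D2:**
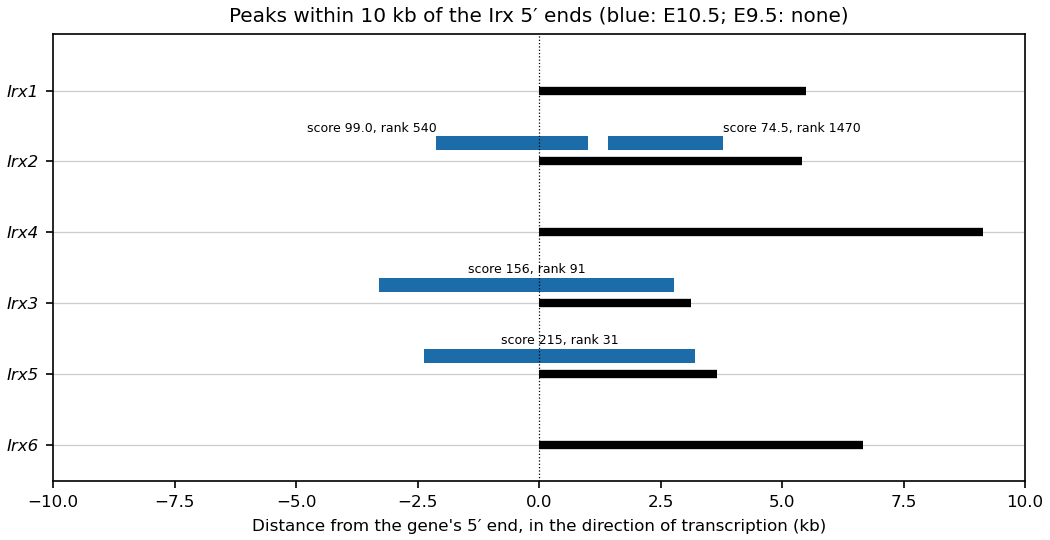
Extent of the peaks (blue, E10.5) within 10 kb of the 5′ end of each Irx gene, with the x axis in kb in the direction of transcription and the gene body as a black bar. Irx2, Irx3 and Irx5 are covered at their 5′ ends, with ranks 540, 91 and 31 of 6185, whereas Irx1, Irx4 and Irx6 have no peak in this range and no E9.5 peak is present at any of the genes.

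Many E10.5 peaks cover a 5′ end, and the Irx peaks were therefore set beside that class. In total 2244 peaks of the E10.5 list covered the 5′ end of a protein-coding gene, with a median score of 67.3 and a median width of 2480 bp. Of these, 0.758% scored higher than the peak at Irx5, 2.63% scored higher than that at Irx3 and 15.6% scored higher than that at Irx2. The shares that were wider were 12.1%, 9.49% and 35.7%. All of the Irx peaks at a 5′ end thus had scores above the median of this class, with Irx5 and Irx3 near its top.

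These peaks were rich in CpG dinucleotides. The peaks at Irx2, Irx3 and Irx5 held 64.9, 59.2 and 76.6 CpG per kb, and the second peak of Irx2 held 58.2 CpG per kb. By contrast, the median of the E10.5 list was 19.9 CpG per kb and its upper quartile 47.8. Among the other members, only the E10.5 peak at the 5′ end of Clptm1l, with 46.0 CpG per kb, came near to these values. The CpG content of all peaks that cover a 5′ end was not computed. The values are therefore not read as particular to the Irx genes.

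At E9.5, all 6 peaks were located more than 20 kb from any Irx 5′ end. The peak nearest to an Irx gene, chr8:94350687-94351125 (439 bp), lay 25.4 kb upstream of Irx3 and had a score of 52.3 and rank 1410 of 2073. It was followed, with increasing distance from Irx3, by chr8:94390864-94391890 (1027 bp) at 65.8 kb upstream, with a score of 43.5 and rank 1791. The third upstream peak, chr8:94451524-94452503 (980 bp), was located at 126 kb and had a score of 47 and rank 1711. The fourth, chr8:94691005-94692206 (1202 bp), was located 190 kb upstream of Irx5 and 366 kb upstream of Irx3, with a score of 52.8 and rank 1347. All 4 lie between genes in the 556 kb that separate the 5′ ends of Irx3 and Irx5. Per Mb of this interval, 7.19 peaks were found at E9.5, whereas the intervals between the other neighbouring Irx genes held 0 peaks at this stage and the genome held 0.811 per Mb.

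The best-scored E9.5 peak of the windows was located in an intron of Fto (chr8:93908341-93909417, 1077 bp), 417 kb from the 5′ end of Irx3 and on its downstream side. It had a score of 53.5 and rank 1233. The last E9.5 peak, and the only one of the chromosome 13 cluster, lay 429 kb downstream of Irx4 in a noncoding exon of Slc6a19 (chr13:73826077-73827389, 1313 bp), which encodes an amino acid transporter. With a score of 35.3 and rank 2021 it was among the lowest of the list, since 97.4% of the E9.5 peaks ranked above it.

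All 6 E9.5 peaks therefore belonged to the lower-scored 50% of their list, with 59.4% to 97.4% of the peaks ranked above them. A score below 50 was given to 3 of the 6, and to 414 of the 2073 peaks of the list. The E9.5 peaks were also narrow, with a median of 1052 bp beside 1244 bp in the list, and 1 of 6 was wider than the list median. The sequence under them was poor in CpG, with 4.56 to 15.3 CpG per kb, all below the list median of 16.0. A peak scored 100 or more, a class that makes up 10.0% of the list, did not occur near any Irx gene at this stage.

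The E10.5 peaks away from the 5′ ends were more heterogeneous. On chromosome 13, Irx2 was followed by chr13:72802575-72804186 (1612 bp) at 37.1 kb downstream, with a score of 62.8 and rank 2666. A further peak, chr13:72920423-72923755 (3333 bp), was located 156 kb downstream of Irx2 and had a score of 61.6 and rank 2833. Both were in the better-scored 50% of the list and lie in the DNA between Irx2 and Irx4. Another peak in this interval, chr13:73146544-73149488 (2945 bp), was located 250 kb upstream of Irx4 and had a score of 43.7 and rank 5621. Beyond Irx4, chr13:73501873-73503950 (2078 bp) had a score of 69.9 and rank 1834 at 105 kb downstream, with Mrpl36, a gene of the mitochondrial ribosome, as the nearest protein-coding gene at 34.5 kb. The last peak of this cluster, chr13:73740167-73742275 (2109 bp; score 56.1, rank 3787), covered the 5′ end of Clptm1l and lay 343 kb downstream of Irx4.

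On chromosome 8, the 2 peaks at Irx3 and Irx5 stood alone at the top, and the other 7 had scores of 38.9 to 52.9. The peak chr8:93898924-93899936 (1013 bp) was located in an intron of Fto, 426 kb downstream of Irx3, with a score of 52.9 and rank 4512. The peak chr8:94189854-94194075 (4222 bp) covered sequence annotated as UTR of Fto, 134 kb downstream of Irx3, with a score of 41.8 and rank 5729. The interval between Irx3 and Irx5, where the E9.5 peaks had been located, held only weak E10.5 peaks apart from the one at Irx3. These were chr8:94472653-94474192 (1540 bp) at 148 kb and chr8:94507867-94508974 (1108 bp) at 183 kb upstream of Irx3, with scores of 39.2 and 49.3 and ranks 5895 and 5407.

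Between Irx5 and Irx6, chr8:94933601-94935629 (2029 bp) lay 52.9 kb downstream of Irx5 with a score of 43.2 and rank 5654. The peak nearest to Irx6, chr8:95165853-95166953 (1101 bp), lay 31.8 kb upstream of it with a score of 38.9 and rank 5915, so that 95.6% of the list ranked above it. The last peak, chr8:95520685-95522173 (1489 bp; score 51.4, rank 4921), was located in an intron of Slc6a2, the noradrenaline transporter gene, 323 kb downstream of Irx6.

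**Figure D3:**
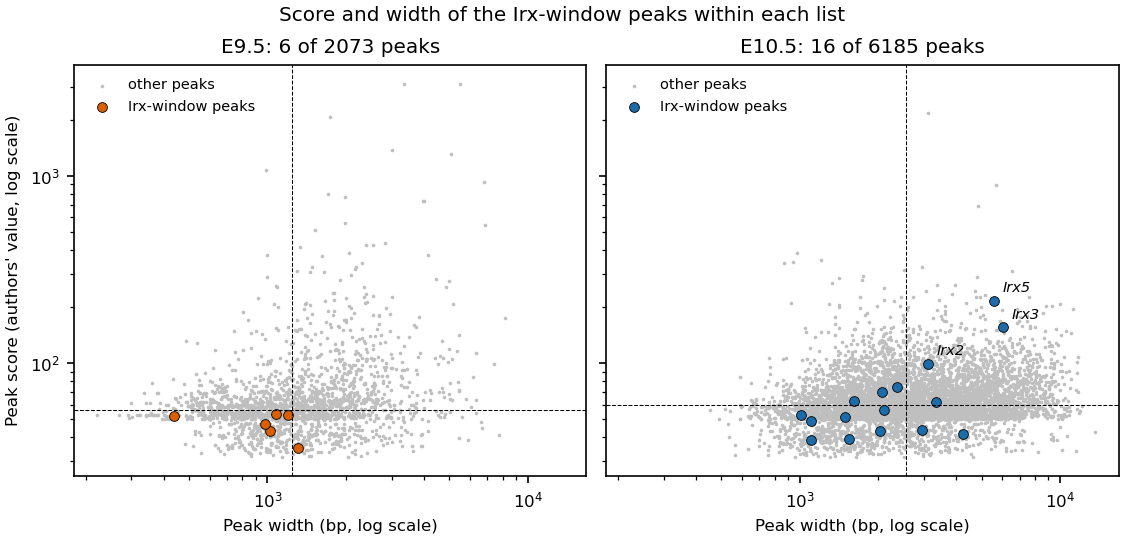
Score against width (both axes logarithmic) of every peak of the E9.5 (left) and E10.5 (right) lists in grey, with the peaks of the Irx windows in colour and the list medians as dashed lines. All 6 E9.5 peaks lie below the median score, whereas the E10.5 peaks range from scores of 38.9 to 215, with the peaks at Irx2, Irx3 and Irx5 on top.

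Across the 16 E10.5 peaks the scores ranged from 38.9 to 215 with a median of 54.5, beside 59.8 in the list, and the median width was 2094 bp beside 2552 bp. The best 10% of the list contained 3 of the 16, namely the peaks at the 5′ ends of Irx2, Irx3 and Irx5. At the other end, 6 of the 16 scored below 50, a class that makes up 13.1% of the list. Of the distal peaks, those at 37.1 kb and 156 kb downstream of Irx2 and at 105 kb downstream of Irx4 scored above the list median. In the whole list 53.6% of the peaks were centred within 5 kb of a transcript start, and in the Irx windows 5 of 16 were (31.3%). At E9.5 these shares were 36.2% of the list and 2 of 6 in the windows (33.3%), where the starts concerned were transcripts of Slc6a19 and Fto.

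The clusters differed in density. The chromosome 8 windows (1.87 Mb) held 5 peaks at E9.5 and 9 at E10.5, or 2.67 and 4.81 per Mb, beside 0.811 and 2.42 per Mb in the genome. The chromosome 13 windows (2.30 Mb) held 1 and 7 peaks, or 0.435 and 3.05 per Mb. The genome value includes regions far from genes. In the 1 Mb centred on the 5′ end of a protein-coding gene, the mean was 1.13 peaks at E9.5 and 4.39 at E10.5. Beside these means, the E10.5 density was similar on chromosome 8 and lower on chromosome 13. At E9.5 it was higher on chromosome 8 and lower on chromosome 13. Covered sequence amounted to 4725 bp at E9.5 and 24149 bp at E10.5 on chromosome 8, and to 1313 bp and 17558 bp on chromosome 13. No peak of either stage was centred in the 500 kb on the far side of Irx1, and the single centre between Irx1 and Irx2 was that of the peak at the 5′ end of Irx2, 0.558 kb upstream of it.

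Although no peak was shared, some peaks of the different stages were close to each other. The nearest were the peaks in the Fto intron, which were separated by 8.41 kb. The E9.5 peak at 126 kb upstream of Irx3 was 20.2 kb from the E10.5 peak at 148 kb, and the E9.5 peak at 25.4 kb upstream of Irx3 was 21.8 kb from the edge of the E10.5 peak at its 5′ end. For the other 3 E9.5 peaks the gap to the nearest E10.5 peak was 62.0 kb, 71.4 kb and 182 kb. The E9.5 peak at 71.4 kb is the one in Slc6a19, whose nearest E10.5 peak lies outside the windows.

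Since the E10.5 list is longer, the number of genes with a peak was read against all 22350 protein-coding genes on chromosomes 1 to 19 and X. Within 500 kb of the 5′ end, 3 of the 6 Irx genes (Irx3, Irx4 and Irx5) had an E9.5 peak, beside 60.6% of all genes. At E10.5 5 of 6 had one, all except Irx1, beside 82.8% of all genes. Within 100 kb, 1 Irx gene (Irx3) had an E9.5 peak, beside 20.5% of all genes, and 4 (Irx2, Irx3, Irx5 and Irx6) had an E10.5 peak, beside 52.9%. For 6 genes, these counts are close to what the shares of all genes would give and do not set the Irx genes apart.

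At the 5′ ends, the E10.5 counts were above the shares of all genes. Within 5 kb 3 of the 6 genes had an E10.5 peak, beside 13.0% of all genes, and the 5′ end itself was covered at 3 of 6, beside 11.3%. For 6 genes in 2 clusters, this excess was not tested and is not read as a result about the Irx genes. At E9.5 the count was 0 of 6 for both, beside 2.64% and 2.11% of all genes, which is near the background. A shared peak within 500 kb was found at 0 of 6 Irx genes, beside 20.9% of all genes for the E9.5 peaks and 20.9% for the E10.5 peaks, a difference that 6 genes in 2 clusters do not resolve. Irx3, Irx4 and Irx5 had peaks at both stages of which none was shared, as was the case for 36.4% of all genes.

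**Figure D4:**
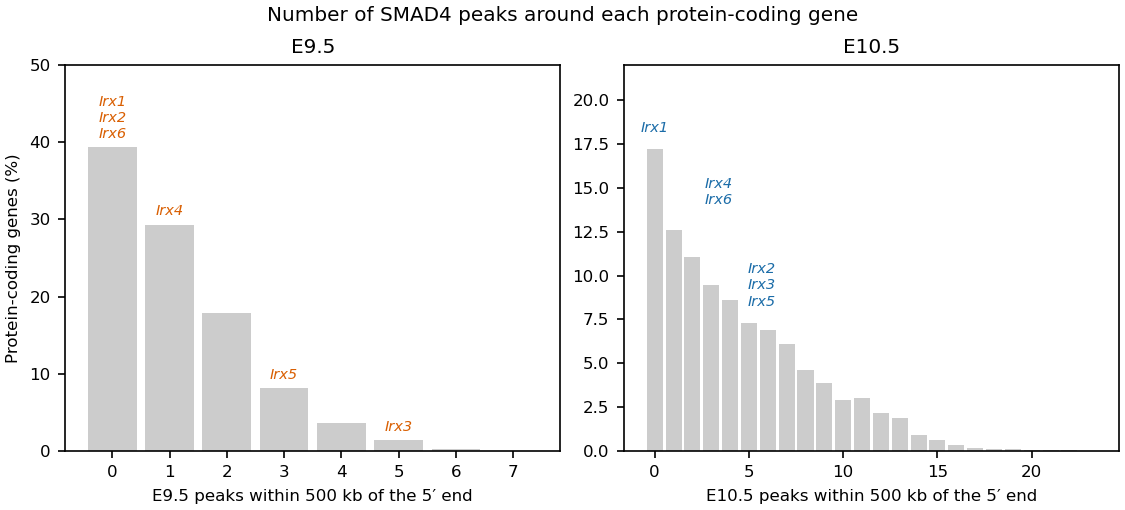
Percentage of the 22350 protein-coding genes (bars) by the number of SMAD4 peaks centred within 500 kb of their 5′ end, at E9.5 (left) and E10.5 (right), with the Irx genes written above the bar of their own count. With 5 E9.5 peaks Irx3 lies in the upper tail of the left distribution, whereas the Irx genes with most E10.5 peaks (5) lie near the centre of the right one.

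By number of peaks, Irx3 stood out at E9.5. It had 5 E9.5 peaks within 500 kb, and 98.3% of all genes had fewer and 0.282% had more. Irx5 had 3, with fewer at 86.6% of all genes, Irx4 had 1, and Irx1, Irx2 and Irx6 had 0. The median over all genes was 1. At E10.5 Irx2, Irx3 and Irx5 had 5 peaks each and Irx4 and Irx6 had 4 each, beside a median of 3, and 58.9% of all genes had fewer than 5. The same peaks were counted for neighbouring genes, such as 3 of the E9.5 peaks for both Irx3 and Irx5, and the genes of a cluster are not independent of each other. All 5 E9.5 peaks near Irx3 scored below the median of their list, so that Irx3 stood out by their number and not by their scores.

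The genes at equivalent positions of the clusters are Irx1 and Irx3, Irx2 and Irx5, and Irx4 and Irx6. Irx2 and Irx5 were both covered at the 5′ end at E10.5 and had 5 peaks each within 500 kb, of which 1 and 2 lay upstream. Their best ranks were 540 and 31, and at E9.5 they differed, with 0 and 3 peaks. Irx1 and Irx3 differed at both stages, with no peak at Irx1 and 5 peaks per stage at Irx3. Irx4 and Irx6 each had 4 E10.5 peaks, none within 5 kb, with the nearest peak at 105 kb downstream of Irx4 and at 31.8 kb upstream of Irx6.

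Other gene families were described by the same counts. Among 8 other TALE homeobox genes, Meis1, Meis2, Meis3, Pbx2, Pbx3, Pbx4, Pknox1 and Pknox2, which encode cofactors of HOX proteins, 7 had a peak within 500 kb at E9.5, beside 60.6% of all genes, and 8 had one at E10.5, beside 82.8%. At E10.5, 5 of the 8 had a peak within 5 kb of the 5′ end, beside 13.0% of all genes, and 3 of the 8 (Meis1, Pbx3 and Pknox1) were covered at the 5′ end, beside 11.3%. At E9.5 both counts were 0, beside 2.64% and 2.11% of all genes. The E10.5 counts of these genes were thus also above the shares of all genes, and binding at the 5′ end is not particular to the Irx genes. For 8 genes, these counts are not read as a result about the TALE genes themselves. A shared peak within 500 kb was found for 2 of the 8, Pbx2 and Pbx3, which is near the 20.9% of all genes. Among the 6 Dlx genes, homeobox genes that also lie in pairs, 4 had a peak within 500 kb at E9.5, beside 60.6% of all genes, and 6 at E10.5, beside 82.8%. At E10.5 2 of the 6 had a peak within 5 kb, beside 13.0% of all genes, and the 5′ end of 1 was covered, beside 11.3%. A shared peak was found for 0 of the 6 Dlx genes, beside 20.9% of all genes. For 6 genes, none of these Dlx counts is read as a result about them. By number of E9.5 peaks within 500 kb, Dlx1, Dlx2, Dlx3, Dlx4 and Pbx2 had 4 each, with fewer at 94.7% of all genes. Dlx5 and Dlx6 had 0, and the remaining TALE genes had 0 to 3. A high number of E9.5 peaks is thus not particular to Irx3, which had 5. The differences between these families were not tested.

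Genes that act with or around IRX3 and IRX5 in the early limb bud were also examined. Gli3, a transcription factor of the SHH pathway required for anterior patterning, had 0 peaks at both stages, and Shh had 0 at E9.5 and 9 at E10.5. Sall4, a zinc finger transcription factor gene with a function in proximal and anterior hindlimb patterning, and Tbx5, the initiator of forelimb outgrowth, each had 1 E9.5 and 5 E10.5 peaks. Hand2, which acts in the posterior mesenchyme, had 1 and 3, and Zbtb16, which acts in the proximal limb, had 4 and 3. Meis1 had 1 at each stage and Meis2 had 0 and 1. Of these 8 genes, 0 had a shared peak within 500 kb, beside 20.9% of all genes, 3 had a peak within 5 kb at E10.5, beside 13.0%, and 2 were covered at the 5′ end at E10.5, beside 11.3%. For 8 genes, none of these counts is read as a result about them.

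The genes most like Irx2 and Irx5 were searched among 22301 protein-coding genes more than 1 Mb from any Irx gene, by the sum of the differences in the logarithms of peak number and best rank over both lists. Nearest to Irx2 were 1700061J05Rik, Mpst and Tst, which share a locus on chromosome 15 with 0 E9.5 and 5 E10.5 peaks and a best E10.5 rank of 541. Nearest to Irx5 were Gm9846, Gpd1l and Trim71, which share a locus on chromosome 9 with 2 E9.5 and 5 E10.5 peaks and best ranks of 1202 and 27. The summed difference was 0.000804 for the first group and 0.524 for the second, over the 2 lists. These loci had 0 shared peaks, which for the first group follows from its 0 E9.5 peaks. The genes of each group share their peaks, and nothing is read from this likeness.

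The sequences under the peaks were searched on both strands for CAGAC, for CAGACC (which contains CAGAC), for the palindrome GTCTAGAC, to which a SMAD can bind on either strand, and for the GC-rich SMAD site GGCGCC. Counted within 300 bp around the centre, 3 of the 6 E9.5 peaks held CAGAC, beside 60.6% of the E9.5 list, and 10 of the 16 E10.5 peaks held it, beside 53.2% of the E10.5 list. CAGACC was present in 1 of 6 and 4 of 16, beside 20.9% and 19.7%. GGCGCC was present in 0 of 6 and 3 of 16, beside 12.6% and 13.1%, and GTCTAGAC in 0 of 6 and 1 of 16, beside 1.21% and 0.420%. Apart from the palindrome, the counts of the Irx peaks were near the shares of the lists. The E10.5 count of the palindrome rests on a single peak, and no difference is read from it. A match of such short sequences describes the DNA and is not a binding site as such.

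The following sequences are the CAGAC matches nearest to the centre in the E9.5 peaks that hold one within 300 bp, the CAGACC match of the peak at 65.8 kb upstream of Irx3, and the GTCTAGAC match of the E10.5 peak at 105 kb downstream of Irx4. They are given on the strand of the match, the plus strand except for the peak at 190 kb upstream of Irx5, with the match in capitals.

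Irx4 +429 kb (E9.5), chr13:73826815-73826843: tagcctcggcatCAGACagttggctgtca

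Irx3 −65.8 kb (E9.5), chr8:94391376-94391404: ggtcagtcctggCAGACagagcctgctgt

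Irx3 −65.8 kb (E9.5), chr8:94391286-94391315: gactgaggagttCAGACCtcagtggctggc

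Irx5 −190 kb (E9.5), chr8:94691530-94691558: tccagagagtccCAGACtttacattccac

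Irx4 +105 kb (E10.5), chr13:73502928-73502957: atcactgacatGTCTAGACtgtatcacatc

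The E9.5 peak at 65.8 kb upstream of Irx3 was the richest among the E9.5 peaks of the Irx windows, with 5 CAGAC matches over 1027 bp, of which 3 were CAGACC. By contrast, the E9.5 peak at 25.4 kb upstream of Irx3, which is 439 bp long, and the E10.5 peak at 148 kb upstream of Irx3, which is 1540 bp long, had no CAGAC in their whole length. The GTCTAGAC match downstream of Irx4 was located 32 bp from the centre of a peak that also held 8 CAGAC matches. Over the whole length of the 16 E10.5 peaks there were 104 CAGAC matches in 15 of them, and the median was 2.60 per kb beside 2.74 per kb in the list.

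The wide peaks at the 5′ ends held matches of several kinds. The peak at Irx3 held 13 CAGAC and 7 GGCGCC matches, that at Irx5 held 12 and 6, and that at Irx2 held 6 and 3. Per kb, CAGAC came to 2.14, 2.15 and 1.93 in this order, all below the E10.5 list median of 2.74. GGCGCC came to 1.15, 1.07 and 0.964 per kb. The list median was 0, since 44.0% of the E10.5 peaks held GGCGCC in their whole length, and any peak with a match exceeds it. The density of this GC-rich sequence in all peaks that cover a 5′ end was not computed, and no enrichment is read from these values. Within 1000 bp of the 5′ end, the CAGAC matches at Irx3 lay 159, 297, 354 and 931 bp upstream, and those at Irx5 lay 205, 694, 824 and 903 bp upstream. At both genes all 4 were thus on the upstream side. At Irx2 they lay 808 and 536 bp upstream and 36 and 856 bp downstream. GGCGCC lay downstream of the 5′ end at Irx5, at 241, 332, 591 and 735 bp, and at Irx2, at 208 and 353 bp, whereas Irx3 had it at 531 and 645 bp downstream and 919 bp upstream.

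At Irx3, CAGAC and GGCGCC also occurred next to each other. In the peak at its 5′ end, 3 GGCGCC matches were followed or preceded by a CAGAC match at 10 bases or less, a distance chosen after the matches had been seen. No other peak of the windows held such a pair. They are given on the plus strand, with both matches in capitals, where CAGAC of the minus strand reads GTCTG.

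Irx3 pair 1, chr8:94323751-94323780: ccaagcGGCGCCgacacgaGTCTGtgtgcc

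Irx3 pair 2, chr8:94326464-94326492: gagtttGGCGCCtaggtgGTCTGgtggaa

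Irx3 pair 3, chr8:94328372-94328401: tctgtgGTCTGggatcagGGCGCCaggagc

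The gaps between the matches were 7, 6 and 7 bases. At least 1 such pair was present in 261 of the 6185 E10.5 peaks (4.22%) and in 71 of the E9.5 peaks (3.42%), and 3 or more were present in 4 E10.5 peaks, including that at Irx3. Wide peaks have more sequence in which a pair can occur, and the peak at Irx3 belongs to the widest 10% of the list.

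RefSeq promoters (250 bases before to 50 after the start, from a table of the GRCm38.p6 build whose sequences were located in mm9 by exact match) were found for 3 of the 6 genes. Those of Irx2 (chr13:72766018-72766317) and Irx3 (chr8:94325504-94325803) lay wholly inside an E10.5 peak and held 1 CAGAC each, which occurs in 49.6% of the 32851 promoters of the table. That of Irx4 (chr13:73397695-73397994) lay in no peak and held no CAGAC and 2 GGCGCC, and 11.9% of the promoters hold at least 1 GGCGCC. The Irx4 promoter had a GC content of 70.7% and 31 CpG, more than those of Irx2 (69% and 25 CpG) and Irx3 (56% and 14 CpG). With only 3 promoters, a relation between CpG content and peaks was not tested.

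The limits of the windows were placed in sparse regions on chromosome 8 and close to a peak on chromosome 13. The farthest E9.5 peaks inside were at 429 kb (Irx4) and 417 kb (Irx3), and the next outside were at 1168 kb (Irx1) and 687 kb (Irx3). At E10.5, the peak chr13:73898766-73902882, with a score of 54.4, lay 503 kb from Irx4 and therefore just outside, and the next outside on chromosome 8 was at 668 kb from Irx3.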

How the data were processed

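Reads were trimmed and aligned by the authors to mm9 with Bowtie 1.1.0, keeping unique matches. Peaks were called with MACS 1.4 at a permissive threshold against input DNA, and the replicates of a stage were combined with MSPC, so that only replicated peaks remain, each with its best p-value. The deposited score of each peak, from the authors, has no named unit, and was used for ranks within a list and for thresholds applied alike to both lists, and its level was not compared between the lists. The Irx genes, gene lists and windows were chosen with earlier results of these data known. Genes are those of GENCODE vM1 on mm9, with 1-based coordinates, and distances run from peak centre to gene 5′ end. No test was made. Counts were checked on simulated lists and with bedtools 2.31.1. Python 3.11.15, NumPy 2.4.6, pandas 2.3.3, pysam 0.24.0, samtools 1.23.1 and Matplotlib 3.10.9 were used. Peaks within 100 kb of an Irx 5′ end, shared peaks and the 3 best-ranked peaks per list were to be named in full, and all 22 were. Alternatives were other windows, score thresholds, overlap rules and motif windows. A gene of the TALE list is not reported here.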

Additional observations from a re-analysis of the deposited data

How the results depend on the processing

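The number of shared peaks was 0 under all 6 alternatives, which says nothing of stability, since 4 of them can only remove overlaps and the other 2 allow 1 kb, less than the smallest gap of 8.41 kb. The number of peaks follows the window and the score. From 6 E9.5 peaks, 2 were left within 100 kb, 3 at a score of 50 or more, 0 at 100 or more, 0 in the better-scored 50% of the list, and 3 where the nearest protein-coding start is an Irx gene. From 16 E10.5 peaks, 7 were left within 100 kb, 10 at a score of 50 or more, 2 at 100 or more, 7 in the better-scored 50%, and 5 when the list was cut to the best 2073 peaks. With scores of 100 or more, 0 Irx genes at E9.5 and 3 at E10.5 had a peak within 500 kb, and 0 and 2 within 100 kb. The 3 genes with an E10.5 peak within 5 kb remained in number at a score of 50 or more and in the list of equal length, with 2 at 100 or more. The shares of all genes were not computed for these filtered lists. The gene counts on them are therefore not read as a result about the Irx genes.

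In whole peaks, 5 of the 6 E9.5 peaks held CAGAC, beside 94.0% of the list, and 4 held CAGACC, beside 58.2%. GGCGCC was held by 1 in its whole length, beside 26.1%, and by 1 within 500 bp, beside 17.2%. Of the 16 E10.5 peaks, 12 held CAGACC in their whole length, beside 79.5% of the list, and 6 held GGCGCC, beside 44.0%. GTCTAGAC was held by 2 in their whole length, beside 3.62%, and CAGACC within 200 bp by 1, beside 13.2%. For so few peaks, none of these counts is read as a result about them. No paired analysis was possible because the deposited lists combine both replicates of a stage. For the same reason no replicate could be left out. The depth of the libraries is unknown, and depth, enrichment and stage cannot be told apart in the number and width of the peaks. The lack of a listed peak, as at Irx1, does not show that SMAD4 is absent there.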
